A study of Mus musculus with 2 samples.

Results

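Dendritic cells (DC) hand peptides to CD4 T cells on MHC class II, and 8 genes of the machinery that cuts and loads those peptides were followed here: H2-DMa, H2-DMb1, H2-DMb2, H2-Oa, H2-Ob, Ctss, Lgmn and Ifi30. They were found by symbol in the deposited gene list, where each symbol occurred once, so they are 8 of 32285 genes. Their transcripts were counted as unique molecular identifiers (UMIs), in which each captured RNA molecule counts once, in DC classes set by marker genes that include no gene of this machinery. The data are 2 single-cell libraries of splenic DC, made with a 10x Genomics 3′ kit from naive mice. The WT library came from H2-Aa +/+ mice and the second from H2-Aa cit/cit mice, which are homozygous for the cit allele of the gene for an MHC-II α chain. Each library pooled 3 female mice of 4 months of age. This age is that of the sample labels, while the methods of the study give a younger age range, and both sexes, for its mice. CD11c selection on beads was followed in both by a sort of about 15000 live CD45.2+ CD11c+ cells. With 1 library per genotype there is no replicate error, the mice of a pool cannot be told apart, and the genotype cannot be told apart from the library. Intervals given below are exact 95% intervals that cover counting error only.

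MHC-II dimers leave the endoplasmic reticulum with the invariant chain (Cd74) in their groove. In endosomes proteases cut that chain down to the CLIP peptide, and the dimer H2-DM (H2-DMa with an H2-DMb chain) swaps CLIP for peptides of other proteins. The dimer H2-O (H2-Oa with H2-Ob) binds H2-DM and inhibits it. Cathepsin S (Ctss) makes the late cuts in the invariant chain, legumain (Lgmn) is an asparaginyl endopeptidase of lysosomes, and GILT (Ifi30) is a thiol reductase that opens disulfide bonds of internalized proteins.

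The genes for H2-DM and H2-O, 5 of the 8, lie within 162 kb of chromosome 17 (chr17:34092340-34254414, GRCm38, GENCODE vM21), all on the plus strand, in the order H2-Oa, H2-DMa, H2-DMb2, H2-DMb1 and H2-Ob. Ctss lies on chromosome 3 (chr3:95526786-95556403, plus strand), Lgmn on chromosome 12 (chr12:102394084-102439813, minus strand) and Ifi30 on chromosome 8 (chr8:70762774-70766663, minus strand). H2-DMb1 (chr17:34153072-34160230) and H2-DMb2 (chr17:34143307-34151555) are neighboring paralogs. Their longest coding transcripts were 94.1% identical over 1219 aligned bases. The last 500 bases, near which a 3′ kit reads, were 87.4% identical over 334 aligned bases and shared none of 451 stretches of 50 bases. How reads that fit both genes were handled is not given in the sources used here, so part of the split between these paralogs stays uncertain. H2-DMa and Ctss each overlap a gene model on the same strand in that annotation.

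MHC-II genes are switched on through an X box and a Y box in front of their start sites, where RFX and NF-Y bind. The X-box-like letters CCNANNAAC, followed after 10 to 30 bases by the Y-box letters GATTGG, were looked for on both strands of the 250 bases before each start in RefSeq (GRCm38.p6). All 8 genes had an entry, with 10 starts in all. The pair was found for 4 of them, H2-Oa, H2-Ob, H2-DMb1 and H2-DMb2. The letters were chosen after these sequences had been seen, so the matches are a description, and the share of all starts with the pair (39 of 32851, 0.119%) is no test of them. The search found no pair for the listed starts of H2-DMa, Ctss, Lgmn or Ifi30. H2-DMa held the Y-box letters alone at 1 of its 2 starts, and Ctss, Lgmn and Ifi30 held neither set of letters. No pair was found for the MHC-II chain genes H2-Aa, H2-Eb1 and H2-Eb2 either, which held the Y-box letters alone. For each match 30 bases are shown on the plus strand, beginning 3 bases before it, because they show what the 4 promoters share, with the fixed letters of the X-box-like match in capitals:
H2-Oa (chr17:34092296-34092325): ttgCCcAgcAACaaacccattatctcagag
H2-DMb2 (chr17:34145119-34145148): ttaCCtAttAACcgatgatgctaggctaag
H2-DMb1 (chr17:34153090-34153119): ttaCCtAgtAACtgatgatgctaggctgat
H2-Ob (chr17:34238811-34238840): ctgCCtAgcAACaaatgatgcaaagtcttc
Between the X-box-like match and the Y box lay 27 bases in H2-Oa, H2-DMb1 and H2-DMb2 and 24 bases in H2-Ob. A match is a description of letters and not of binding. The H2-DMb1 stretch is annotated as untranslated exon of another H2-DMb1 transcript in GENCODE, which begins upstream of the RefSeq start.

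The WT library held 7814 cells and the H2-Aa cit/cit library 11525, with medians of 5492 and 5633 UMIs per cell and 31 barcodes in common. DC classes were gated on markers with a UMI. cDC1 had 577 WT and 671 H2-Aa cit/cit cells, cDC2 3122 and 7140, mature DC (which carry Ccr7 and Fscn1) 2097 and 1373, and plasmacytoid DC (pDC) 99 and 99. Itgax, which encodes CD11c, had a UMI in 39.3% to 76.5% of the cells of these classes, and Flt3 in 73.6% to 90.9%. Cells with under 8% of UMIs from ribosomal protein genes were 42.4% (WT) and 24.1% (H2-Aa cit/cit) of cDC2, and 51.3% and 34.1% of mature DC. H2-Aa went with its labels: in cDC1, cDC2, mature DC and pDC it had 6658, 6316, 3926 and 3774 CPM in WT, where CPM are counts scaled to 1000000 UMIs of the class. The H2-Aa cit/cit levels were 44.3, 75.3, 50.8 and 61.4 CPM. NK-like cells, gated on NK markers, served as a reference, and background below means their level, from free RNA or another source. They had 458 CPM of H2-Aa in WT (33 cells) and 7.67 CPM (0.194 to 42.7, from 1 UMI) in the H2-Aa cit/cit library (25 cells). The H2-Aa cit/cit levels of the DC classes lay above that interval, and where these UMIs come from was not tested. T-like cells, 1 and 5 in number, were too few to serve as a reference. The NK-like levels were no fixed part of those in all cells. In WT they were 458 against 5410 CPM for H2-Aa and 98.9 against 361 CPM for H2-DMa. Free RNA, doublets and transcripts of the NK-like cells themselves were not told apart.

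The DC classes differed in which of these genes they used, and the same leaders appeared in both libraries. Among whole classes, H2-DM chains other than H2-DMb2 were highest in cDC1, and H2-DMb2 and both H2-O chains in cDC2. The enzymes legumain and GILT were highest in mature DC. Some gated subsets of cDC2 lay above these leaders for H2-DMa, Ifi30 and, in WT, H2-DMb1, as given below. Some clusters named cDC2 also did so for H2-DMb1 and Lgmn. An H2-Aa cit/cit cluster of 614 cells had 685 CPM of H2-DMb1, against 635 CPM in cDC1. For Lgmn a WT cluster of 644 cells had 119.1 CPM, against 116.9 CPM in mature DC. An H2-Aa cit/cit cluster of 184 cells had 330 CPM of Lgmn, against 101.9 CPM in mature DC. A 3′ kit counts transcripts once whatever their length, so levels of different genes are compared here per molecule and not per base.

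H2-DMa, the α chain of the peptide exchange catalyst, had 541 CPM in cDC1 of WT mice, 461 in cDC2, 419 in pDC and 152 in mature DC. In H2-Aa cit/cit mice its level was 604, 578, 478 and 233 CPM in that order. Mature DC were lowest in both libraries, by 3.56-fold against cDC1 in WT and 2.60-fold in H2-Aa cit/cit cells. The intervals of cDC2 and pDC overlapped in WT, and the WT mature DC level lay within the NK-like interval (59.6 to 154.5 CPM).

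H2-DMb1, a β chain of H2-DM, was at 553, 298, 277 and 99.6 CPM in cDC1, cDC2, pDC and mature DC of WT mice. The H2-Aa cit/cit levels were 635, 349, 277 and 147 CPM. Its level was 1.85-fold higher in cDC1 than in cDC2 in WT and 1.82-fold in H2-Aa cit/cit cells, and cDC2 and pDC of WT overlapped in their intervals.

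H2-DMb2, the other β chain, went the other way between cDC1 and cDC2. Its levels in cDC1, cDC2, pDC and mature DC were 68.6, 269.6, 153 and 128 CPM in WT. The H2-Aa cit/cit library had 83.1, 287, 149 and 180.1 CPM. In cDC2 it was 3.93-fold higher than in cDC1 in WT and 3.45-fold higher in H2-Aa cit/cit cells. The cDC1 level in WT lay within the interval of the NK-like cells (52.1 CPM, 24.97 to 95.8, from 10 UMIs). It cannot be told from background, so no exact fold is read from it. In H2-Aa cit/cit cells the cDC1 level lay above the NK-like interval (8.36 to 78.6 CPM, from 4 UMIs). Its own interval, 77.55 to 88.99 CPM, overlapped that one. Mature DC and pDC overlapped in both libraries.

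H2-Oa, the α chain of the inhibitor, stood at 184.5 CPM in cDC1, 300.1 in cDC2, 179 in pDC and 138 in mature DC of WT mice. In H2-Aa cit/cit mice it stood at 148, 344, 172 and 184 CPM. It was highest in cDC2 in both. The next places changed between the libraries, and cDC1 and pDC overlapped in both.

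H2-Ob, its β chain, reached 127, 161, 30.1 and 37.1 CPM in cDC1, cDC2, pDC and mature DC of WT mice, against 127, 168, 56.2 and 57.6 CPM in H2-Aa cit/cit mice. Both conventional DC classes were above mature DC and pDC, which overlapped. In WT the pDC and mature DC levels lay within the NK-like interval of 8.45 to 60.8 CPM (5 UMIs).

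Among the enzymes, Ctss was at 392, 822, 712 and 592 CPM in cDC1, cDC2, pDC and mature DC of WT mice and at 419, 811, 742 and 632 CPM in H2-Aa cit/cit mice. It spread the least of all, by 2.10-fold and 1.93-fold from the lowest to the highest class, and cDC2 and pDC of H2-Aa cit/cit mice overlapped. Legumain was the rarest of the 8 in cDC1. Lgmn had 18.3, 58.9, 34.8 and 116.9 CPM in cDC1, cDC2, pDC and mature DC of WT mice, and 24.3, 62.3, 47.0 and 101.9 CPM in H2-Aa cit/cit mice. Ifi30 followed with 425, 836, 646 and 1135 CPM in WT, and with 349.6, 891, 662 and 1149 CPM in the H2-Aa cit/cit library, in that order. Both enzymes had the same order in both libraries, with mature DC first, then cDC2, pDC and cDC1. For Lgmn cDC2 and pDC overlapped in H2-Aa cit/cit mice.

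**Figure D1:**
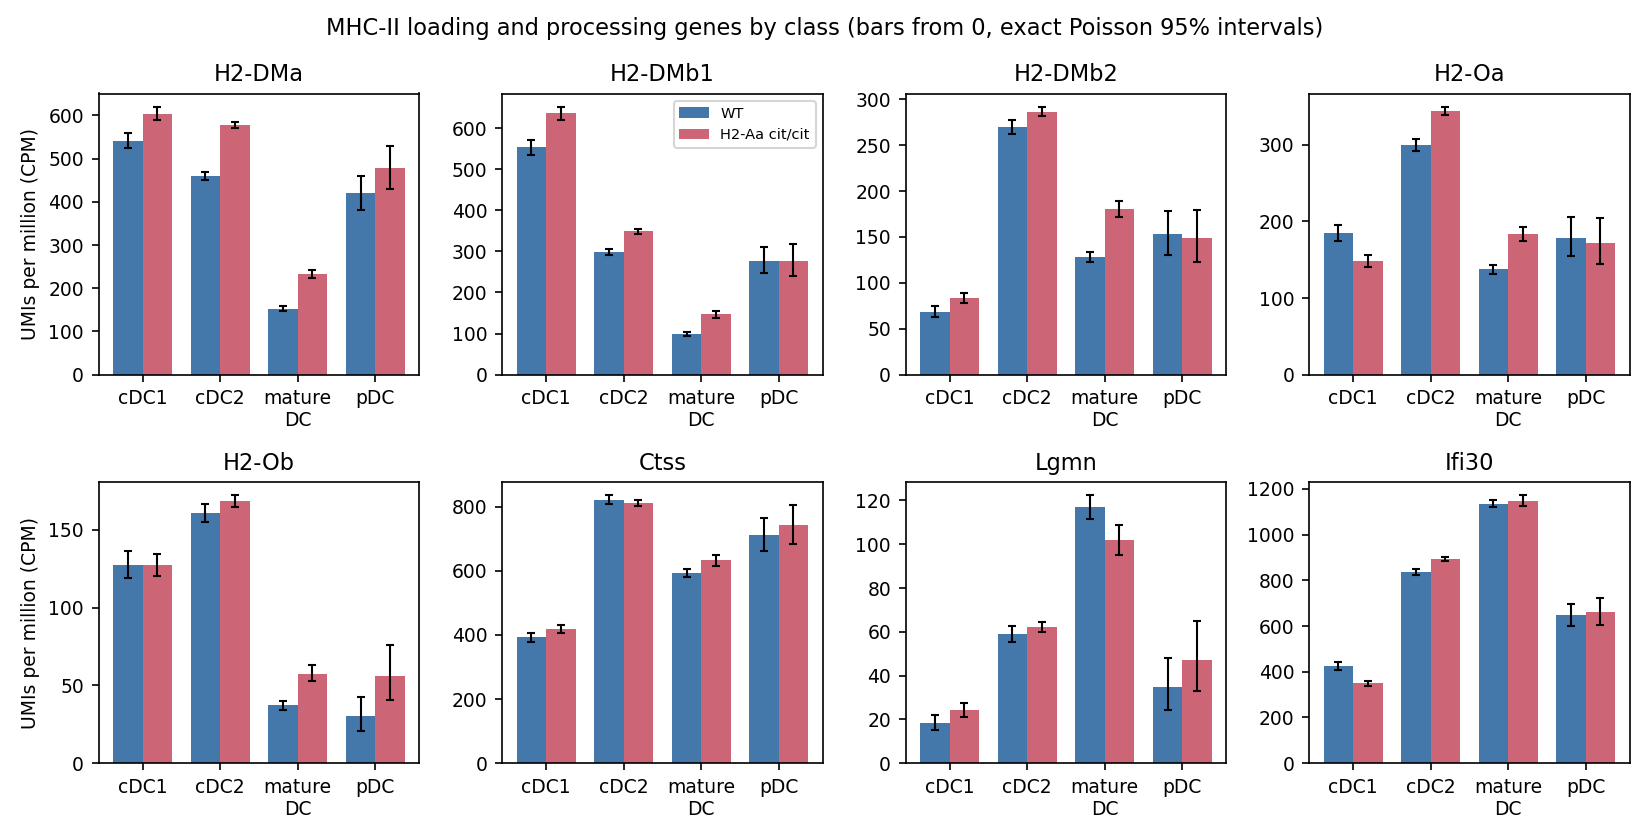
Level of each of the 8 genes (CPM of the class, bars from 0, with exact Poisson 95% intervals) in 4 DC classes of the WT and the H2-Aa cit/cit library. H2-DMb1 is tallest in cDC1 (553 and 635 CPM), H2-DMb2 in cDC2 (269.6 and 287 CPM) and Ifi30 in mature DC (1135 and 1149 CPM).

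Shares of cells were compared at equal depth. After each cell was thinned to 1500 UMIs, H2-DMb1 had a UMI in 51.5% of WT cDC1 (47.3% to 55.7%, 571 cells) and 30.4% of cDC2 (28.7% to 32.1%, 3008 cells). For H2-DMb2 these shares were 10.2% (7.80% to 12.9%) and 29.2% (27.6% to 30.8%). In H2-Aa cit/cit cells H2-DMb1 was seen in 59.9% of cDC1 (668 cells) and 36.5% of cDC2 (6862 cells), and H2-DMb2 in 9.88% and 32.5%. Legumain was found in 1.93% of WT cDC1 and 15.8% of mature DC (2047 cells), and in 4.19% and 13.6% (1338 cells) in H2-Aa cit/cit mice. NK-like cells of WT (33 cells) had H2-DMb2 in 6.06% (0.743% to 20.2%), H2-DMb1 in 0% (up to 10.6%) and Lgmn in 3.03%. In WT cDC1 the H2-DMb2 share was within that background interval, and so was the Lgmn share. In H2-Aa cit/cit mice 21 NK-like cells had H2-DMb2 in 14.3% (3.05% to 36.3%), H2-DMb1 in 19.0% (5.45% to 41.9%) and Lgmn in 0% (up to 16.1%). Of the H2-Aa cit/cit shares above, only that of H2-DMb1 in cDC1 lay above these wide intervals. The thinning left out 6 WT cDC1, 114 WT cDC2 and 278 H2-Aa cit/cit cDC2. Unthinned, median depth was 10331 UMIs in WT cDC1, 5410.5 in cDC2 and 4429 in NK-like cells.

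The DC classes differed in which of the 2 β chains they held. H2-DMb2 made up 11.03% of H2-DMb UMIs in WT cDC1 (10.1% to 12.0%, of 4207 UMIs) and 11.6% in H2-Aa cit/cit cDC1 (10.8% to 12.3%, of 7141). The H2-DMb2 level of WT cDC1 lay within the NK-like interval, so the 11.03% cannot be told from background. In cDC2 its part was 47.5% (46.5% to 48.4%, of 10874) and 45.1% (44.5% to 45.7%, of 27882). In pDC the values were 35.6% (31.2% to 40.2%) and 35.0% (29.8% to 40.4%), and in mature DC 56.2% and 55.1%. The gap between cDC1 and cDC2 was thus wider than the gap between the libraries in each of the 4 classes. The sum of both β chains over H2-DMa was 1.15 in WT cDC1 (1.098 to 1.2005) and 1.23 in WT cDC2 (1.1993 to 1.269), with intervals that overlapped. In H2-Aa cit/cit cells it was 1.19 in cDC1 (1.149 to 1.231) and 1.10 in cDC2 (1.081 to 1.118). In WT cDC2 it was 1.15 in cells of at least 8% ribosomal UMIs and 2.11 in the others.

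The β chains of mature DC differed with the markers they carried. Mature DC were split into cells with at least 2 cDC1 markers and more cDC1 than cDC2 markers (231 WT and 32 H2-Aa cit/cit cells), and cells with no cDC1 marker and at least 1 cDC2 marker (1004 and 809 cells). H2-DMb2 had 22.0% of H2-DMb UMIs (17.9% to 26.6%, of 372) in WT mature DC with cDC1 markers, against 62.5% (60.4% to 64.6%, of 2094) in those with cDC2 markers. The H2-DMb2 level in the former, 27.0 CPM, lay within the NK-like interval, so the 22.0% cannot be told from background. In H2-Aa cit/cit mice the values were 19.2% (14.1% to 25.1%, of 214) and 61.2% (58.7% to 63.6%, of 1571). The 32 H2-Aa cit/cit cells with cDC1 markers had 56.3% among the highest doublet scores of that library, against 9.09% of the 231 WT cells, and the part of doublets in their values was not tested.

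Within cDC2 the β chains also varied. In cDC2 with a UMI of Ccr2, a chemokine receptor of some cDC2 and of monocytes, H2-DMb2 made up 20.2% in WT (18.3% to 22.3%, 201 cells) and 24.1% in H2-Aa cit/cit mice (22.9% to 25.3%, 700 cells). In cDC2 without one it was 52.0% (51.0% to 53.1%) and 49.6% (49.0% to 50.3%). Ccr2-positive cDC2 had 654 (WT) and 621 (H2-Aa cit/cit) CPM of H2-DMb1, against 553 and 635 CPM in cDC1. Their H2-DMa level, 746 and 791 CPM, was above that of cDC1 (541 and 604 CPM). Their Ifi30 level, 1407 and 1271 CPM, was above that of mature DC (1135 and 1149 CPM). Other measures moved with this split. A cDC1 marker was seen in 74.6% (WT) and 66.1% (H2-Aa cit/cit) of Ccr2-positive cDC2 and in 26.2% and 23.8% of the others, and the 10 cDC1 markers summed to 243 and 162 CPM against 70.3 and 63.3 CPM, with 1 marker at 0 in the Ccr2-positive cells of each library. In cDC1 they summed to 3978 and 3071 CPM. Ccr2-positive cDC2 were also deeper in WT (median 9560 against 4993 UMIs), and 9.45% against 44.7% of them were under 8% ribosomal UMIs. The part of these measures in the H2-DMb, H2-DMa and Ifi30 values was not tested. Over clusters called cDC2 with at least 100 cells, made without these genes, the H2-DMb2 part ran from 33.8% to 61.6% in 5 WT clusters and from 22.8% to 64.5% in 9 H2-Aa cit/cit clusters. The WT range leaves out a cluster of 132 cells led by Cd209d and Cyp7b1, which was at 16.3% and had too few cells in the cDC2 gate for the name (46.2%), while the lowest H2-Aa cit/cit cluster was led by the same 2 genes, so the ranges cover unlike sets of clusters. The highest in each library was led by Sox4 and Rgs7bp. These 4 genes are named after their values were seen.

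**Figure D2:**
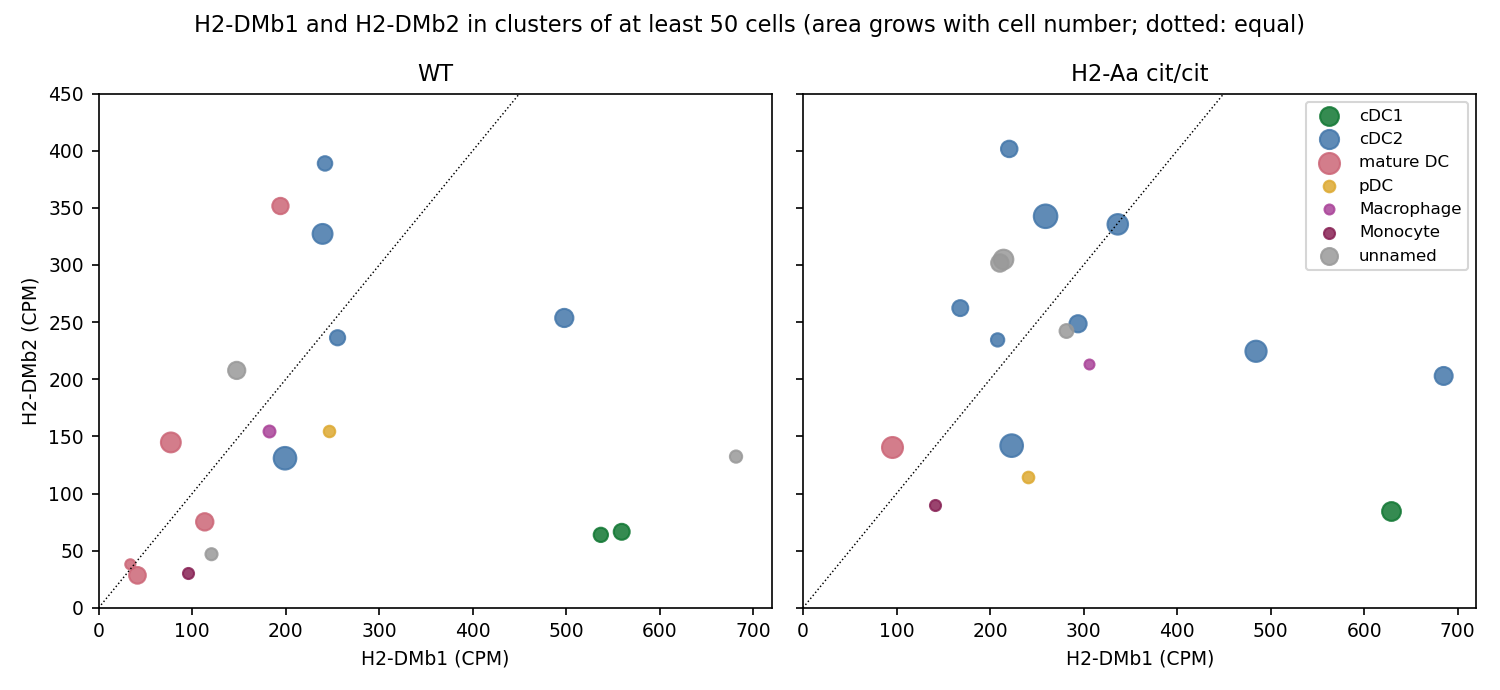
H2-DMb2 against H2-DMb1 (both in CPM) in each cluster of at least 50 cells, colored by class name, for WT (left) and H2-Aa cit/cit (right), with a dotted line where both are equal. Clusters named cDC1 lie far below the line (559 against 66.5 CPM in the largest WT one), and most named mature DC lie near or above it.

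The H2-O genes had fewer UMIs than the H2-DM genes in every class. Their ratio was lower in cDC1 and pDC than in cDC2 and mature DC. UMIs of H2-Oa and H2-Ob over those of H2-DMa, H2-DMb1 and H2-DMb2 came to 0.268 in WT cDC1 (0.256 to 0.281), 0.448 in cDC2 (0.437 to 0.459), 0.460 in mature DC (0.440 to 0.481) and 0.246 in pDC (0.211 to 0.285). In H2-Aa cit/cit mice it was 0.208 (0.200 to 0.217), 0.422 (0.416 to 0.429), 0.432 (0.410 to 0.454) and 0.253 (0.213 to 0.299). Ccr2-positive cDC2, at 0.247 (WT) and 0.278 (H2-Aa cit/cit), were below cDC2 without Ccr2, at 0.484 and 0.454, beside the higher cDC1 marker level given above. The chains of H2-O were not in step with each other. H2-Oa over H2-Ob was 1.45 in WT cDC1 (1.33 to 1.58), 1.87 in cDC2 (1.79 to 1.95), 3.71 in mature DC (3.38 to 4.06) and 5.94 in pDC (4.07 to 8.93). The H2-Aa cit/cit ratios were 1.16, 2.04, 3.19 and 3.07. The H2-Ob levels of mature DC and pDC lay within the NK-like intervals in both libraries, so no exact ratio is read there. Within cDC2 the ratio went with ribosomal share: it was 0.762 (WT) and 0.835 (H2-Aa cit/cit) in cells under 8% ribosomal UMIs and 2.14 and 2.16 in the others, a wider gap than between cDC1 and cDC2.

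**Figure D3:**
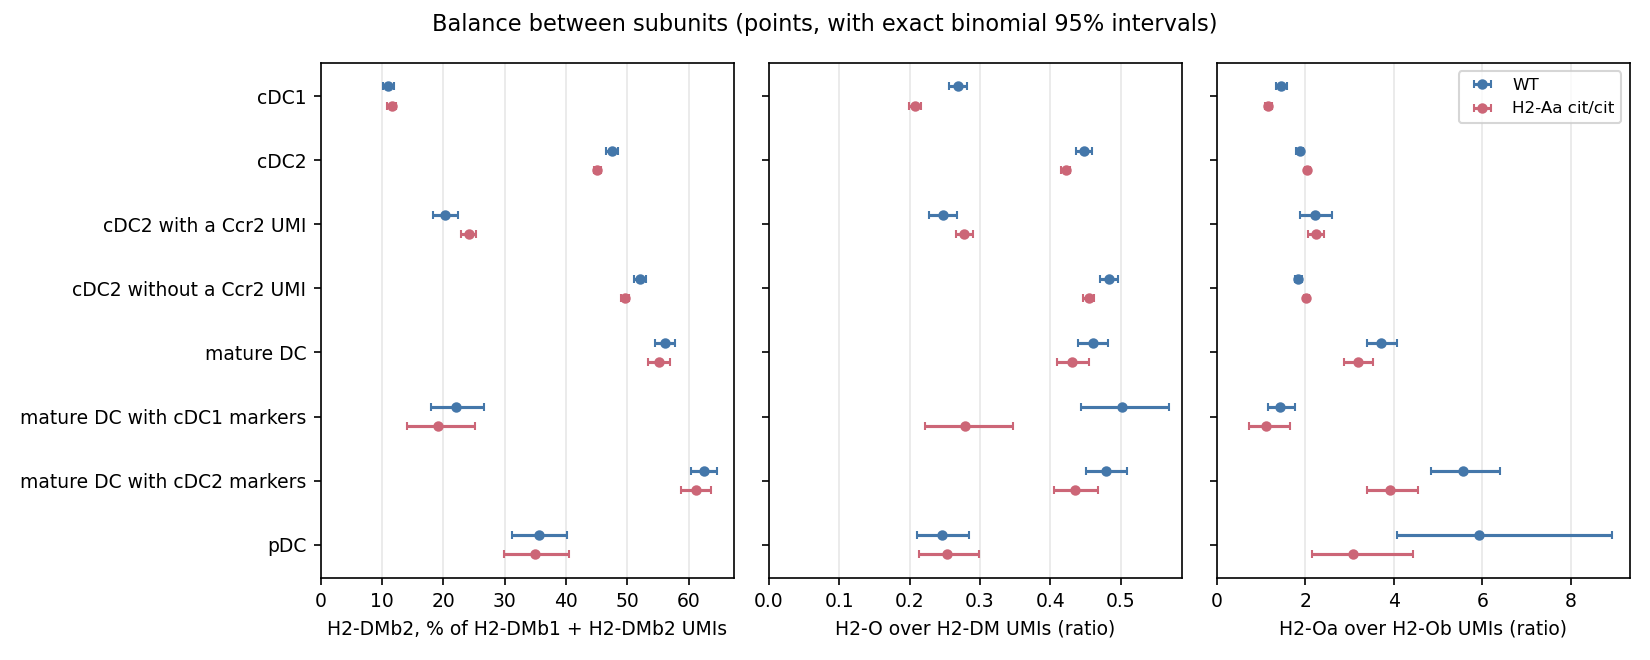
Part of H2-DMb2 in H2-DMb UMIs (percent), H2-O over H2-DM UMIs and H2-Oa over H2-Ob UMIs (ratios) in DC classes and their subsets, as points with exact binomial 95% intervals for both libraries. In the first panel mature DC with cDC1 markers (22.0% and 19.2%) lie between cDC1 (11.03% and 11.6%) and cDC2 (47.5% and 45.1%). Those with cDC2 markers (62.5% and 61.2%) lie beyond cDC2. The 22.0% and the 11.03%, both of WT, cannot be told from background.

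Mature DC were then set against DC of the same marker type, since maturation is known to change antigen handling. In WT mature DC with cDC1 markers, H2-DMb1 was 5.79-fold lower than in cDC1 (95.6 against 553 CPM) and H2-Oa 2.45-fold lower (75.5 against 184.5 CPM). H2-DMa (132 against 541 CPM), H2-Ob (52.7 against 127 CPM) and H2-DMb2 (27.0 against 68.6 CPM) were also lower, each at a mature DC level within the NK-like interval, and no exact fold is read from them. Lgmn was higher (109 against 18.3 CPM, the latter within the NK-like interval of up to 29.0 CPM). Ifi30 was 2.40-fold higher (1020.3 against 425 CPM), while Ctss was 1.10-fold higher. In WT mature DC with cDC2 markers, H2-Ob was at 35.2 CPM, within the NK-like interval, against 161 CPM in cDC2. Levels were lower than in cDC2 by 2.64-fold for H2-DMa, 2.58-fold for H2-DMb1, 1.53-fold for H2-Oa, 1.40-fold for H2-DMb2 and 1.24-fold for Ctss. Lgmn was 1.59-fold and Ifi30 1.47-fold higher there. In WT all 5 chains were thus lower and both Lgmn and Ifi30 higher in the 2 marker types. The H2-Aa cit/cit mature DC with cDC2 markers had 48.5 CPM of H2-Ob and 128 CPM of H2-DMb1, both within the NK-like intervals. In cDC2 these were at 168 and 349 CPM. H2-DMa, H2-Oa, H2-DMb2 and Ctss were 2.66-, 1.81-, 1.42- and 1.26-fold lower than in cDC2, and Lgmn and Ifi30 1.56- and 1.38-fold higher. Each of these had the direction seen in WT. In the 32 H2-Aa cit/cit mature DC with cDC1 markers, H2-DMa and H2-DMb1 were 1.57- and 1.55-fold lower and Ifi30 1.92-fold higher than in cDC1. Lgmn was at 89.9 against 24.3 CPM, the latter within the NK-like interval. The intervals of H2-DMb2, H2-Oa and H2-Ob held 0 there.

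The ribosomal share moved with these levels. In WT cDC2 with under 8% ribosomal UMIs, H2-Oa was 3.53-fold, H2-DMa 3.34-fold and Ifi30 3.17-fold lower than in the other cDC2, while H2-Ob was 1.26-fold lower. H2-DMa had 551 (WT) and 623 (H2-Aa cit/cit) CPM in cDC2 of at least 8%. These levels were above those of cDC1 of any ribosomal share (541 and 604 CPM), with intervals that overlapped in both libraries. Among cells of at least 8% alone, WT mature DC still had 2.56-fold less H2-DMa, 2.48-fold less H2-DMb1 and 3.27-fold less H2-Ob than cDC2, and 1.58-fold more Lgmn. In H2-Aa cit/cit cells of that share these were 2.23-, 2.14- and 2.52-fold less and 1.47-fold more. The H2-Ob levels of these mature DC, 51.6 and 68.2 CPM, lay within the NK-like intervals.

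**Figure D4:**
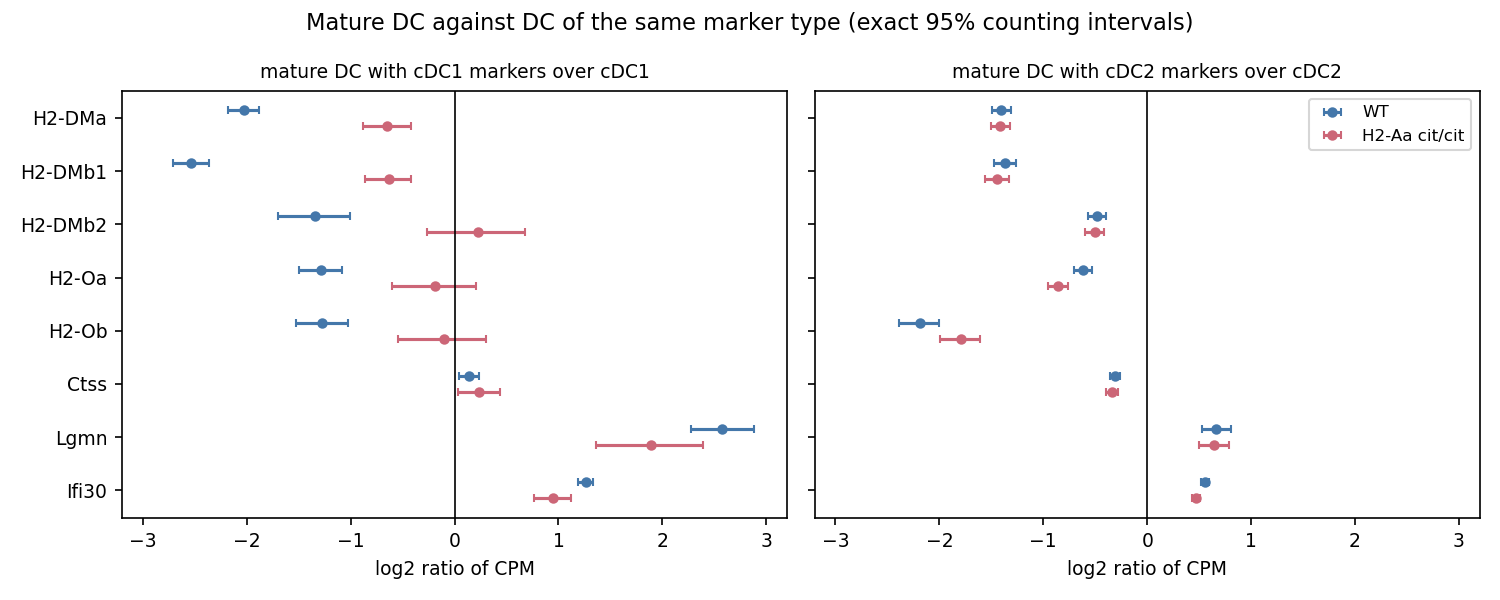
Log2 ratio of the level (CPM) in mature DC with cDC1 markers over cDC1 (left) and in mature DC with cDC2 markers over cDC2 (right) for the 8 genes in both libraries, with exact 95% counting intervals. In WT the 5 chains lie left of 0 and Lgmn and Ifi30 right of 0 in both panels, and the 32 H2-Aa cit/cit cells of the left panel have wide intervals.

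The libraries were then compared to ask whether the loading genes differ where the α chain transcript is low. They differed by less than 1.5-fold in cDC1 and cDC2. Here log2 ratios are of the CPM in H2-Aa cit/cit over WT cells, and a gene counts as past the limit at 1.5-fold or more, where only genes that reach 10 CPM in 1 of the libraries are counted. In cDC2 none of the 8 passed this limit in either direction, where 2.11% of 8665 genes were higher and 2.97% were lower by that much. H2-DMa had the highest ratio (0.33, 0.29 to 0.36, 461 against 578 CPM), above that of 92.8% of genes. H2-DMb1 followed (0.22, 0.18 to 0.27) and then H2-Oa (0.20, 0.15 to 0.24). Ifi30, H2-DMb2, Lgmn, H2-Ob and Ctss lay between -0.02 and 0.09. The median was 0.09 over the 8 genes and -0.05 over all. In cDC2 of at least 8% ribosomal UMIs, H2-DMa stood at 0.18 (0.14 to 0.21), H2-DMb1 at 0.17 (0.12 to 0.21) and H2-Oa at 0.04, with an interval that holds 0. In Ccr2-positive cDC2, H2-DMa was at 0.09 and H2-DMb1 at -0.07, both with intervals that hold 0. There Ctss was at -0.31 (-0.38 to -0.24) and Ifi30 at -0.15 (-0.21 to -0.08). H2-DMb2, at 0.25 (0.07 to 0.43), and H2-Oa, at 0.21 (0.07 to 0.36), lay above 0, and the intervals of H2-Ob and Lgmn held 0.

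In cDC1 none of the 8 passed 1.5-fold, where 8.75% of 8213 genes were higher and 6.72% lower. H2-DMb2 (0.28), H2-DMb1 (0.20) and H2-DMa (0.16) were above 0 and their intervals did not hold 0. Lgmn was at 0.40 (0.09 to 0.73). The WT level of H2-DMb2 and both levels of Lgmn lay within the NK-like intervals. Cells among the highest doublet scores were 5.20% (WT) and 10.4% (H2-Aa cit/cit) of cDC1, and their part in the ratios was not tested. H2-Oa was at -0.32 (-0.43 to -0.21) and Ifi30 at -0.28 (-0.35 to -0.21). The H2-Oa value moved with 1 group of WT cells. One WT cluster called cDC1, led by Cd207 (named after its values were seen) and with a median ribosomal share of 33.2%, had 388 CPM of H2-Oa, while the other had 146 CPM and the 1 H2-Aa cit/cit cluster of that name had 149 CPM. Without clusters of over 25% median ribosomal share, an alternative chosen after seeing the data, H2-Oa in cDC1 was at 0.00 and Ifi30 at -0.20. As a mean over cells H2-Oa was at -0.61, past 1.5-fold, and the other 6 alternatives gave -0.37 to -0.30.

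In mature DC all 5 chains were above 0 with intervals that did not hold 0. H2-Ob (0.63, 0.46 to 0.81, 37.1 against 57.6 CPM) and H2-DMa (0.61, 0.53 to 0.70, 152 against 233 CPM) passed 1.5-fold, so 2 of 8 were higher, where 7.91% of 8530 genes were. None was lower, where 4.98% were. The WT levels of both lay within the NK-like intervals. H2-DMb1 (0.56), H2-DMb2 (0.50) and H2-Oa (0.42) were near the limit, Ctss (0.09) and Ifi30 (0.02) near 0, and Lgmn was at -0.20 (-0.31 to -0.08). The median was 0.46 over the 8 genes and 0.09 over all.

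These differences moved with the make-up of the class. Cells among the highest doublet scores of their library were 9.01% (WT) and 16.1% (H2-Aa cit/cit) of mature DC, and 6.25% and 9.22% of all cells, since that cut grows with library size. A cDC1 marker was seen in 35.7% (WT) and 19.7% (H2-Aa cit/cit) of mature DC, and the summed level of 10 cDC1 markers was 312 and 131 CPM, with no marker at 0. In mature DC with cDC2 markers alone, the ratio was 0.32 for H2-DMa (0.19 to 0.44), 0.46 for H2-Ob (0.19 to 0.73), 0.15 for H2-DMb1 (-0.01 to 0.30), 0.07 for H2-DMb2 (-0.06 to 0.19) and -0.05 for H2-Oa (-0.17 to 0.08). None passed 1.5-fold. H2-Ob had 35.2 and 48.5 CPM there, both within the NK-like intervals. In the few mature DC with cDC1 markers (231 and 32 cells) the chain ratios ran from 0.79 for H2-Oa to 2.10 for H2-DMb1, and Ifi30 was at -0.60. Their WT levels of H2-DMa, H2-DMb2 and H2-Ob lay within the NK-like intervals. Of these cells, 9.09% (WT) and 56.3% (H2-Aa cit/cit) were among the highest doublet scores. The share of all genes past 1.5-fold is not given for either marker type, so counts there are not read as results about the genes. Among mature DC of at least 8% ribosomal UMIs, H2-DMa was at 0.37 (0.28 to 0.47) and H2-Ob at 0.40 (0.21 to 0.59). The parts that cell make-up, doublets and ribosomal share play in the ratios were not tested.

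In pDC, H2-Ob was 1.87-fold higher in H2-Aa cit/cit cells (0.90, 0.21 to 1.61), from 32 and 43 UMIs in 99 cells each, and of the 8 it alone was past 1.5-fold, where 9.97% of 8973 genes were higher and 10.0% lower. Both levels (30.1 and 56.2 CPM) lay within the intervals of NK-like cells. The other ratios lay between -0.05 and 0.43, and each of those intervals held 0.

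**Figure D5:**
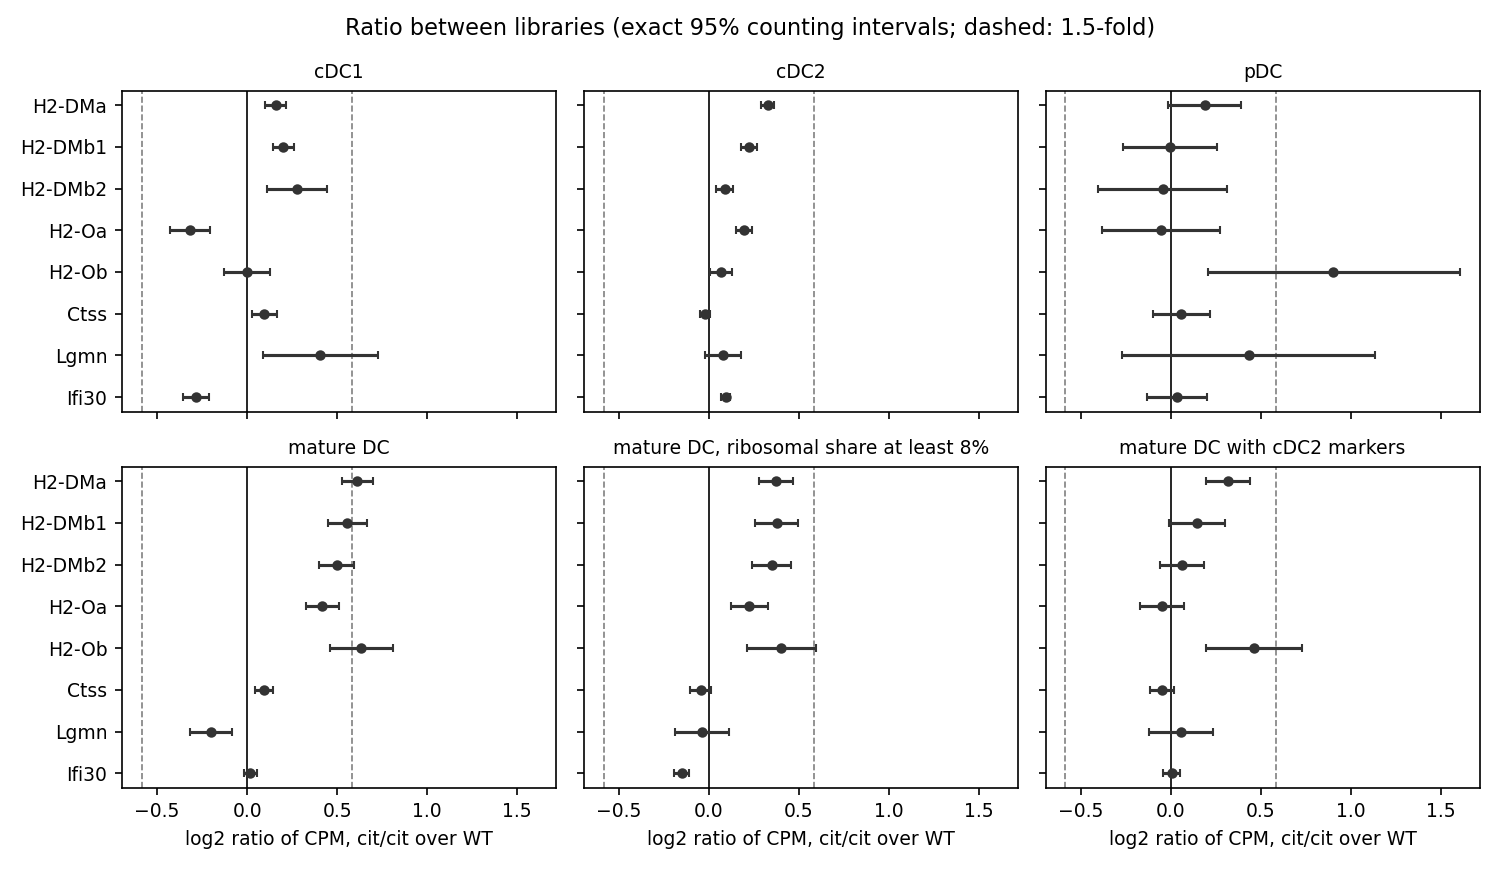
Log2 ratio of CPM in H2-Aa cit/cit over WT cells for the 8 genes in 4 DC classes and in mature DC of at least 8% ribosomal UMIs or with cDC2 markers, with exact 95% counting intervals and dashed lines at 1.5-fold. H2-DMa and H2-Ob pass the line in all mature DC (0.61 and 0.63) and not in mature DC with cDC2 markers (0.32 and 0.46).

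The rest of the pathway was read from 3 lists. Over all genes, 2.11% were past 1.5-fold higher and 2.97% lower in cDC2, and 7.91% and 4.98% in mature DC. In cDC1 these shares were 8.75% and 6.72%. Of 13 MHC-II chain genes and their regulators, 12 were measured in cDC2 at 10 CPM or more. H2-Aa was lower (-6.39) and no other passed 1.5-fold, among them Cd74, the highest (14503 and 15723 CPM, 0.12). In mature DC, H2-Aa was lower (-6.27) and H2-Ab1 (0.67, 2620 and 4163 CPM) and H2-Eb1 (0.60, 3537 and 5349 CPM), both β chains, were higher. In mature DC with cDC2 markers these stood at 0.40 and 0.35, under 1.5-fold. Ciita, the master activator of MHC-II genes and named outside the rule, was at -0.11 in cDC2 and 0.29 in mature DC. In cDC1 only H2-Aa passed the limit, and in pDC H2-Aa and Rfx5 did, both lower, where 10.0% of genes were. Rfx5 rests on 21 and 10 UMIs and its interval held 0 (-1.85 to 0.55). The median of this list was -0.07 in cDC2 and 0.01 in mature DC.

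Of 14 other endolysosomal proteases and inhibitors, 12 were measured in cDC2. Ctse, an aspartic protease, was past 1.5-fold (4.70 and 12.9 CPM, 1.46), where 2.11% of all genes were higher. Cst3, the cysteine protease inhibitor cystatin C and the highest of the list, was at 0.36. In mature DC 11 were measured. Ctsa (0.66) and the aspartic protease Napsa (0.67) were higher, where 7.91% of all genes were. Cst3 was lower (-0.76, 3683 and 2174 CPM), where 4.98% were. Within the marker types Cst3 went the other way, at 0.18 in mature DC with cDC1 markers (10605 and 11978 CPM) and 0.16 in those with cDC2 markers (1206 and 1344 CPM), beside the cDC1 marker levels of 312 and 131 CPM in all mature DC. Ctsa and Napsa stood at 0.48 and 0.36 in mature DC with cDC2 markers. Medians were 0.17 and -0.02. In cDC1 12 were measured, and Ctsc (0.78), Ctsd (0.86) and Cstb (0.70) were higher, where 8.75% of all genes were. Ctsd had 7.09 and 12.9 CPM there, from 48 and 128 UMIs. In pDC none of the list passed.

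Of 11 genes of MHC-II trafficking and turnover, 9 were measured in cDC2 and in mature DC. Cd63, a tetraspanin of late endosomes, was lower in cDC2 (11.4 and 5.31 CPM, -1.11), where 2.97% of all genes were. March1, which ubiquitinates MHC-II and sends it to degradation, was the highest of the list in cDC2 (618 and 574 CPM, -0.11). It was higher in mature DC of H2-Aa cit/cit mice (94.5 and 147 CPM, 0.64), where 7.91% of all genes were. In mature DC with cDC2 markers it stood at 0.34. Cd83, which opposes March1 and was the highest in mature DC, was at 942 and 803 CPM (-0.23). In cDC1 8 were measured, and Arl8b (0.59) was higher and Cd83 (-0.67) lower, where 8.75% and 6.72% of all genes were. In pDC Cd83 was lower (-1.85, from 45 and 9 UMIs), where 10.0% were. Medians were -0.11 in cDC2 and -0.23 in mature DC.

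Likeness of pattern was measured by Pearson's r of log2(CPM + 1) over 7 classes (cDC1, cDC2 of high and of low ribosomal share, mature DC with cDC2 markers, pDC, macrophage-like and monocyte-like cells) of at least 50 cells in each library. Cells of a library share its preparation and its free RNA, and the 7 points differ in depth and ribosomal share. Among the 8 genes, H2-DMa and H2-DMb1 had an r of 0.86 (WT) and 0.85 (H2-Aa cit/cit), Ctss and Lgmn 0.85 and 0.87, and H2-DMb2 and H2-Oa 0.80 and 0.75. H2-DMb1 and H2-DMb2 had -0.04 and -0.41. The chains of H2-O had 0.37 and 0.19.

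Of 5628 genes with at least 50 CPM in some class, the 3 closest to each in WT follow, with r in WT and then in H2-Aa cit/cit cells. For H2-DMa they were Ndufa10 (0.99, 0.75), Pa2g4 (0.97, 0.95) and Rnps1 (0.96, 0.88). For H2-DMb1 they were Rpf2 (0.96, 0.93), Snx22 (0.94, 0.87) and Mak16 (0.93, 0.89), of which Snx22 is among the markers that set the cDC1 class. For H2-DMb2 they were Ccnd1 (0.93, 0.66), Cnpy3 (0.92, 0.49) and Siglecg (0.91, 0.75). H2-Oa had Zc3h15 (0.94, -0.31), Rbmxl1 (0.89, 0.60) and Mpc1 (0.86, 0.44). H2-Ob had Snx21 (0.95, 0.82), Pak1 (0.95, 0.88) and Vrk1 (0.93, 0.88). Ctss had Rsrp1 (0.96, 0.75), Fcer1g (0.96, 0.92) and Ms4a6c (0.95, 0.94). Lgmn had F11r (0.97, 0.86), Acp2 (0.96, 0.82) and Dram1 (0.96, 0.87). Ifi30 had Isg15 (0.92, 0.72), Sdhaf1 (0.91, 0.80) and Rnf181 (0.91, 0.73). Every gene listed here had a lower r in H2-Aa cit/cit cells than in WT, where it was picked as closest of 5628 over 7 points. How high r gets by such picking alone was not tested.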

How the data were processed

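The deposited matrices are raw UMI counts (a value for every gene in every called cell) from Cell Ranger 5.0.1, named with mm10 in the submitters' processing notes. Reads were aligned to GRCm38. The values were computed with Python 3.11.15, pandas 2.3.3, scipy 1.17.1, numpy 2.4.6, scanpy 1.11.5, leidenalg 0.10.2 and matplotlib 3.10.9. The 8 genes, the lists and the rule for named genes were chosen with earlier results of these data known. Named were the 8 genes, the 3 most alike in pattern to each, H2-Aa and, per list, genes past 1.5-fold in cDC2 or mature DC and the highest gene. Ciita, Rfx5, Ctsc, Ctsd, Cstb and Arl8b are list genes named outside this rule, after their values were seen.

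Of 10 markers per class, a cell needed UMIs of at least 5 for mature DC, 4 for cDC1, 6 for pDC and 2 for cDC2 (with at most 3 mature, 2 cDC1 and 4 pDC markers). NK-like cells needed 3 of 5 markers. Gate thresholds were set after marker counts had been seen. All called cells were kept and doublets were not removed. UMIs were summed per class and divided by the class total (CPM). Intervals are exact Poisson (levels), conditional binomial (ratios) and Clopper-Pearson (shares). The ratio was tried on simulated class sums that hold counting error alone, which say nothing about error between cells, mice or libraries. No test across libraries was run, since each genotype has 1 library.

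Alternatives were median-ratio scaling, means over cells, clusters in place of gates, stricter gates, and leaving out cells of over 10% mitochondrial UMIs, of the highest Scrublet scores (488 WT and 1063 H2-Aa cit/cit cells) or of under 8% ribosomal UMIs. Leaving out mature DC with a cDC1 marker, or clusters of over 25% ribosomal share, was added after seeing the data. Clusters (2000 variable genes, 30 components, resolution 0.8) were made per library without the 8 genes and the MHC-II chains.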

Additional observations from a re-analysis of the deposited data

Results flagged for a closer look

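For 3 genes the difference between the libraries went opposite ways in 2 DC classes, with counting intervals that did not hold 0. With 1 library per genotype these differences between classes were not tested. H2-Oa had a log2 ratio (H2-Aa cit/cit over WT) of -0.32 in cDC1 and 0.42 in mature DC. Leaving out clusters of over 25% median ribosomal share brought the first to 0.00, while a mean over cells gave -0.61 and the other 6 alternatives -0.37 to -0.30. Leaving out mature DC with a cDC1 marker brought the second to -0.01. Lgmn had 0.40 in cDC1 and -0.20 in mature DC, from levels of 18.3 and 24.3 CPM in the first class, within the counting interval of NK-like cells. Ifi30 had -0.28 in cDC1 and 0.0934 in cDC2, and the second was at -0.06 among cells of at least 8% ribosomal UMIs. What sets these values apart was not tested.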

How the results depend on the processing

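No paired analysis was possible because each genotype has 1 library and the libraries carry no shared replicate number. Leaving out a replicate could not be done for the same reason, so depth limits only the counting error, which was widest in pDC (99 cells per library) and in mature DC with cDC1 markers. Of 32 log2 ratios, 28 kept their sign with classes from clusters, 29 with 1 marker more, 30 by means over cells, 29 under median-ratio scaling, 31 without cells of high mitochondrial share, 27 without cells of low ribosomal share, 31 without the highest doublet scores and 30 without clusters of over 25% ribosomal share. Without mature DC with a cDC1 marker, 5 of the 8 ratios of that class kept their sign and 1 lay inside its counting interval. Of the 32, only 21 lay inside with classes from clusters, 19 by means over cells and 18 without cells of low ribosomal share. Over all alternatives the mature DC ratio ran from 0.06 to 0.70 for H2-DMa, 0.07 to 0.75 for H2-DMb1 and 0.02 to 0.51 for H2-DMb2. The H2-Ob ratio in mature DC turned to -0.10 with classes from clusters, which compares unlike cells. In WT 2 clusters (417 and 535 cells) were named mature DC with 50.1% and 58.7% of cells in that gate and no mature DC marker among their leading genes, and an H2-Aa cit/cit cluster of 870 cells that shares leading genes with both stayed unnamed at 45.4%. The causes of the changes were not tested.

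The 2 genes past 1.5-fold in mature DC became 0 under a limit of 2-fold, median-ratio scaling, means over cells, classes from clusters, without the highest doublet scores, without low ribosomal cells and without cells with a cDC1 marker, and 5 under the lower fold limit that was tried. In pDC 1 became 2 at the lower limit, 0 at 2-fold and 2 by means over cells. In cDC1 0 became 1 at the lower limit and 1 by means over cells, and in cDC2 0 became 1 at the lower limit. With a minimum of 50 CPM, the proteases and the trafficking genes past the limit in cDC2 went from 1 to 0 each. The trafficking genes in pDC went from 1 to 0 and the chains and regulators in pDC from 2 to 1. Shares of all genes under these other limits are not given here, so the counts are not read as results about the genes.

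The H2-DMb2 part in mature DC was 60.3% (WT) and 59.5% (H2-Aa cit/cit) with classes from clusters, 59.1% and 62.1% without the highest doublet scores, and 62.5% and 61.4% without cells with a cDC1 marker. In cDC2 it was 48.7% in WT without low ribosomal cells, and in H2-Aa cit/cit mice 43.9% with clusters and 44.5% without the highest doublet scores, which gave 10.6% in H2-Aa cit/cit cDC1. H2-O over H2-DM in H2-Aa cit/cit mice was 0.199 in cDC1, 0.469 in mature DC and 0.211 in pDC without the highest doublet scores, and 0.412 in cDC2 and 0.304 in pDC with clusters. In WT it was 0.243 in cDC1 without clusters of over 25% ribosomal share and 0.484 in mature DC without cells with a cDC1 marker.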
